A study of Mus musculus with 54 samples.

Results

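The transcripts examined were those of 5 genes of the red blood cell: Hba-a1 and Hba-a2, which encode the adult alpha-globin chains of hemoglobin, Hbb-bs and Hbb-bt, which encode the adult beta-globin chains, and Alas2, which encodes the erythroid enzyme that starts heme synthesis. They were taken by name, not by their measured values, from the 47069 genes of a count table of mouse brain RNA-seq, through a GRCm38 annotation (GENCODE). The table holds 54 libraries of polyA RNA, 1 for each of 18 mice in cerebellum, cortex and striatum. There were 10 mice heterozygous for an insertional Mbd5 allele (Mbd5+/GT) and 8 wild-type (WT) littermates, all 8 weeks old and on a C57BL/6 background, with no treatment named in the labels. The Mbd5+/GT allele carries the gene-trap construct pU-21B in the second intron of Mbd5 in all cells of the animal, and is described as hypomorphic, although the genotype label calls it a heterozygous deletion. By litter, litter 1 was 3 females of each genotype, litter 2 was 4 Mbd5+/GT males and 1 WT male, and litter 3 was 2 females and 1 male of Mbd5+/GT with 2 females and 2 males of WT.

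Hemoglobin is a tetramer of alpha- and beta-globin chains, each of which holds a heme group that binds oxygen. The globin genes and Alas2 are transcribed in erythroid precursors in the bone marrow, and mature mammalian red cells carry the remaining mRNA without a nucleus. In brain tissue these transcripts are commonly read as a sign of blood in the vessels, although some neurons and glia are also known to express globins. Each library is RNA of whole tissue, so fewer cells with these transcripts and less RNA per cell cannot be told apart. Whether the vessels were flushed before dissection is not given in the sources used here, and no measure of blood other than transcripts was analysed.

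In GRCm38, Hba-a1 (ENSMUSG00000069919) lies at chr11:32283511-32284465 and Hba-a2 (ENSMUSG00000069917) at chr11:32296489-32297298, both on the plus strand of the alpha-globin cluster. Hbb-bs (ENSMUSG00000052305) lies at chr7:103826534-103828096 and Hbb-bt (ENSMUSG00000073940) at chr7:103812524-103813996, both on the minus strand of the beta-globin cluster. Alas2 (ENSMUSG00000025270) lies at chrX:150547375-150570638 on the plus strand and overlaps Apex2, which is on the minus strand, and the microRNA gene Mir3620. Since the strand setting of the counting is not named, reads of Alas2 and of its overlapping genes may not have been fully told apart.

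The members of each globin pair are near copies. Of all stretches of 75 bases in the annotated transcripts of a gene, 62.24% in Hba-a1, 81.04% in Hba-a2, 64.26% in Hbb-bs and 56.60% in Hbb-bt also occurred in the transcripts of another gene, and 0% did in Alas2. Reads from such stretches align to several places and are dropped or split in counting, so the ratio of 2 copies and their absolute levels are uncertain.

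The promoters of the 5 genes are shown as a description. Their part in the differences of these transcripts between libraries was not tested. Promoter sequences of RefSeq (GRCm38.p6) were available for all 5 genes, and the 215 bases just before the RefSeq start are printed, with 4 short motifs in capitals on either strand. They are GATAA, the core of sites bound by GATA factors, CACCC, the box bound by Krüppel-like factors, CCAAT and TATAA. For the minus strand the capitals show the reverse complement.
Hba-a1: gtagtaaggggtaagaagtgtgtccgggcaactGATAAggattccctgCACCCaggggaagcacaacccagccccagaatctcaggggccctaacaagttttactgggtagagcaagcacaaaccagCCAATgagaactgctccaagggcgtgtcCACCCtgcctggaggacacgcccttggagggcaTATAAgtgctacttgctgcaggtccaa
Hbb-bs: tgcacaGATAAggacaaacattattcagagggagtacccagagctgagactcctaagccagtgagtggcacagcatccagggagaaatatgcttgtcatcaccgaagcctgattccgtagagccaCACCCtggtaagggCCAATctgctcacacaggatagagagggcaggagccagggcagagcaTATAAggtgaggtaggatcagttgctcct
Hbb-bt: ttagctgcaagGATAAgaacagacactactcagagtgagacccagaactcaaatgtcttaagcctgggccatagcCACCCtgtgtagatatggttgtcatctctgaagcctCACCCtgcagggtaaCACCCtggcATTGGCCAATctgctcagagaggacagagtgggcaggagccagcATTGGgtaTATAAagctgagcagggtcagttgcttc
Alas2: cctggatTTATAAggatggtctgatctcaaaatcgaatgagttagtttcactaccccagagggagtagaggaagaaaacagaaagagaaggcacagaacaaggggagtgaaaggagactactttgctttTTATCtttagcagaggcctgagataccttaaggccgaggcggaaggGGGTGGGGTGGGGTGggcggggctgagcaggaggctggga
These stretches lie at chr11:32283457-32283671 (plus), chr7:103827929-103828143 (minus), chr7:103813924-103814138 (minus) and chrX:150547202-150547416 (plus). The GENCODE starts of these 4 genes lie upstream of the RefSeq starts, inside the printed stretches. Hba-a2 is not printed, since its window of 300 bases shared an identical run of 297 bases with that of Hba-a1. By contrast, the longest identical run between Hbb-bs and Hbb-bt was 14 bases, and between Alas2 and the globin genes 9 to 11 bases.

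A GATAA was found in all 5 windows, at -182 of Hba-a1, -185 of Hba-a2, -209 of Hbb-bs, -204 of Hbb-bt and, on the minus strand, -86 of Alas2. Of 32851 promoter windows of the same length, 25.4% held one. A CACCC was present in all 5 windows and in 57.5% of all windows. A CCAAT was present in the 4 globin windows, not in that of Alas2, and in 37.4% of all windows. A TATAA lay between -30 and -27 in each globin gene, while the one of Alas2 lay at -207 and overlapped its own reverse complement, and 24.9% of all windows held one. These matches are descriptions of letters and not of bound sites.

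The libraries held 25295973 to 49027399 counted reads (median 29073866). Mbd5 was lower in Mbd5+/GT than in WT libraries of all 3 regions, with a log2 fold change of -0.49 (cortex, adjusted p = 0.00012), -0.51 (striatum, 9.41e-05) and -0.34 (cerebellum, 0.00912), in edgeR's quasi-likelihood test (Benjamini-Hochberg adjusted). Neuron markers of the labelled region, 8 genes for each region, were under 33% of the median of their region in 4 libraries. In the library labelled cerebellum of mouse M755 (Mbd5+/GT), Pcp2, Gabra6, Cbln1 and the other cerebellar markers summed to 185 CPM (read counts scaled to a common library total), against a median of 6272, so that library goes against its label. The library labelled cerebellum of mouse M754 (WT) had 1932. Among libraries labelled striatum, Drd1, Drd2, Ppp1r1b and the other striatal markers summed to 269.8 CPM in mouse M754 and 711.9 in mouse M761, both WT, against a median of 3600. Results for cerebellum and striatum are therefore given with and without these 4 libraries. That threshold does not mark libraries with markers of a second region. Striatal markers summed to 1949, 1942 and 2012 CPM in the cortex libraries of WT mice M752, M761 and M765. The striatum libraries of Mbd5+/GT mice M763, M756 and M755 had less, 1343, 1509 and 1707, and were kept. The part of mixed tissue in the comparisons of striatum with cortex was not tested.

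All 5 transcripts were counted in every library. Hbb-bs had 945 to 10119 reads per library, Hba-a1 276 to 3067, Hbb-bt 110 to 1628, Hba-a2 83 to 1154 and Alas2 65 to 489, so the spread between mice and not counting error set the precision. Together they made up 51.83 to 453.4 CPM of a library, with a median of 126.1. Per length, as CPM divided by the exon length in kilobases (RPKM), Hbb-bs was the highest in every region, with medians of 123.2 (cerebellum), 77.46 (cortex) and 103.8 (striatum). Hba-a1 followed at 30.35, 22.26 and 33.81, ahead of Hbb-bt at 21.04, 14.20 and 17.07. The medians of Hba-a2 were 14.18, 8.632 and 17.06, so in striatum Hba-a2 and Hbb-bt were at nearly the same level. Alas2 was the lowest at 2.456, 1.881 and 2.104.

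The proportions of the 5 transcripts were steadier than their levels. Over the 54 libraries the summed level differed from 51.83 to 453.4 CPM, whereas the ratio of Hbb-bs to Hbb-bt counts ran from 5.02 to 8.964, with a median of 6.251. Counts of Hba-a1 were 1.84 to 5.325 times those of Hba-a2, with a median of 2.699. The ratio of both beta-globin genes to both alpha-globin genes ran from 1.592 to 4.555, with a median of 2.776, and that of Hbb-bs to Alas2 from 10.4 to 24.74, with a median of 14.96.

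Mouse M767, an Mbd5+/GT male of litter 2, had the highest Hbb-bs of all 18 mice in each region, with 310.6 CPM (cerebellum), 171.5 (cortex) and 219.7 (striatum). In cortex and striatum all 5 transcripts were highest in this mouse. In cerebellum 2 of the 5 were, while 2 were highest in the library of mouse M755 that lacked cerebellar markers and 1 in mouse M765, the WT male of litter 2. That WT male ranked 3, 3 and 2 for Hbb-bs in cerebellum, cortex and striatum, with 221, 104.1 and 123.8 CPM. At the other end, mouse M763, an Mbd5+/GT female of litter 1, had the lowest Hbb-bs in cerebellum, 44.47 CPM, and in striatum, 31.53 CPM, and was at rank 15 in cortex, with 45.42 CPM. The lowest library of cortex, at 31.15 CPM, was that of mouse M761, a WT female of litter 1.

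**Figure D1:**
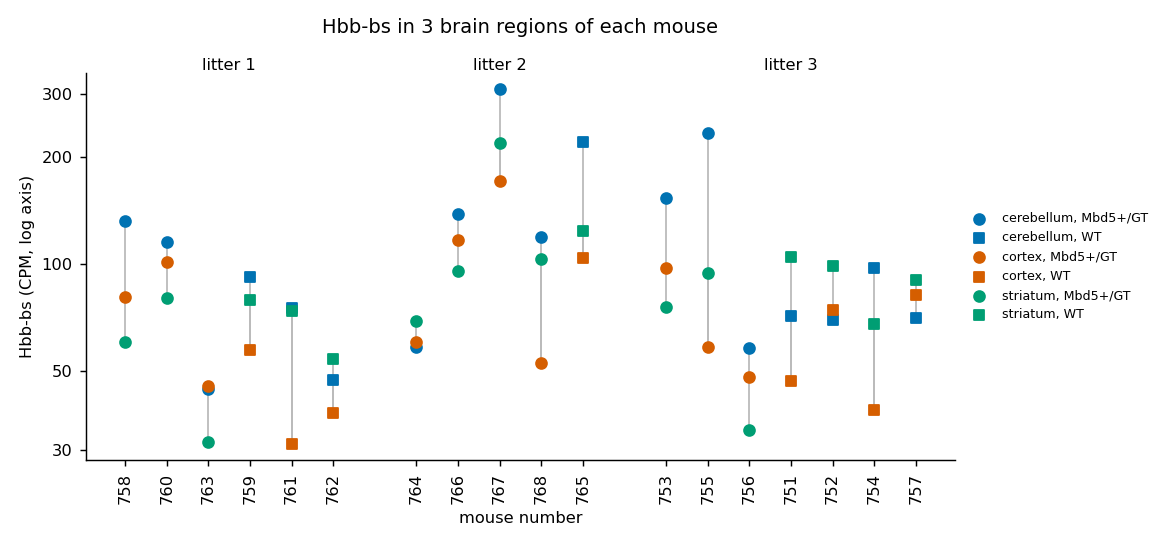
Hbb-bs in CPM on a log axis in the 3 libraries of each of the 18 mice, with colors for regions and marker shapes for genotypes. Mouse M767 is highest in all 3 regions, at 310.6, 171.5 and 219.7 CPM.

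Differences between mice made up more of the variance than differences between the regions of a mouse. After the region means were removed, 66.3% of the variance of log2 Hbb-bs lay between mice, with a standard deviation (SD) of 0.57 between mice and 0.41 within a mouse. The share was 59.9% for Hba-a1, 56.8% for Hba-a2, 69.4% for Hbb-bt and 72.3% for Alas2. Without the 3 mice that gave the 4 libraries low in regional markers, the shares were 66.9% to 81.1%, again highest for Alas2.

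To ask whether a mouse kept its place from region to region, each gene was correlated with itself over the mice, and p-values were adjusted over all genes tested in both regions. The correlation of Hbb-bs was r = 0.685 between cortex and cerebellum (Spearman's rho 0.631), 0.722 between striatum and cerebellum (rho 0.602) and 0.605 between striatum and cortex (rho 0.554), n = 18 mice. The permutation p-values of r were 0.0017, 0.00058 and 0.00765, and those of rho 0.00584, 0.0098 and 0.0189. None passed adjustment over all genes, with adjusted p = 0.22, 0.124 and 0.292 for r and 0.432, 0.457 and 0.43 for rho, although the r of Hbb-bs was above that of 98.07% to 99.56% of genes. Without the 2 mice farthest from the median of the first region, r fell to 0.546, 0.514 and 0.394, and without the libraries low in regional markers it was 0.806, 0.747 and 0.660. Within the 6 mice of litter 1 the r values were 0.743, 0.706 and 0.290, and within the 7 of litter 3 they were 0.215, 0.304 and 0.319.

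Alas2 was the 1 of the 5 transcripts that passed adjustment, between striatum and cortex. Its r was 0.869 (permutation p = 1e-05, the smallest the permutations can give, adjusted p = 0.00753) and its rho 0.889 (permutation p = 1e-05, adjusted p = 0.0139). It held at r = 0.802 without the 2 farthest mice, 0.82 within litter 1, 0.852 within litter 3 and 0.874 without the libraries low in striatal markers. Of all genes, 0.216% passed with a positive correlation between striatum and cortex, 0.213% between striatum and cerebellum and 0.268% between cortex and cerebellum. For the 3 other globin genes, r ranged from 0.505 for Hba-a2 between striatum and cortex to 0.753 for Hbb-bt between cortex and cerebellum, and rho from 0.356 to 0.759. Their permutation p-values of r were 0.00038 to 0.0313, and the adjusted ones 0.104 to 0.562, so none passed. Without the 2 farthest mice the lowest and highest r became 0.382 and 0.612. Hbb-bt passed adjustment between cortex and cerebellum in the 16 mice that remained without those libraries (r = 0.839, adjusted permutation p = 0.0424).

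**Figure D2:**
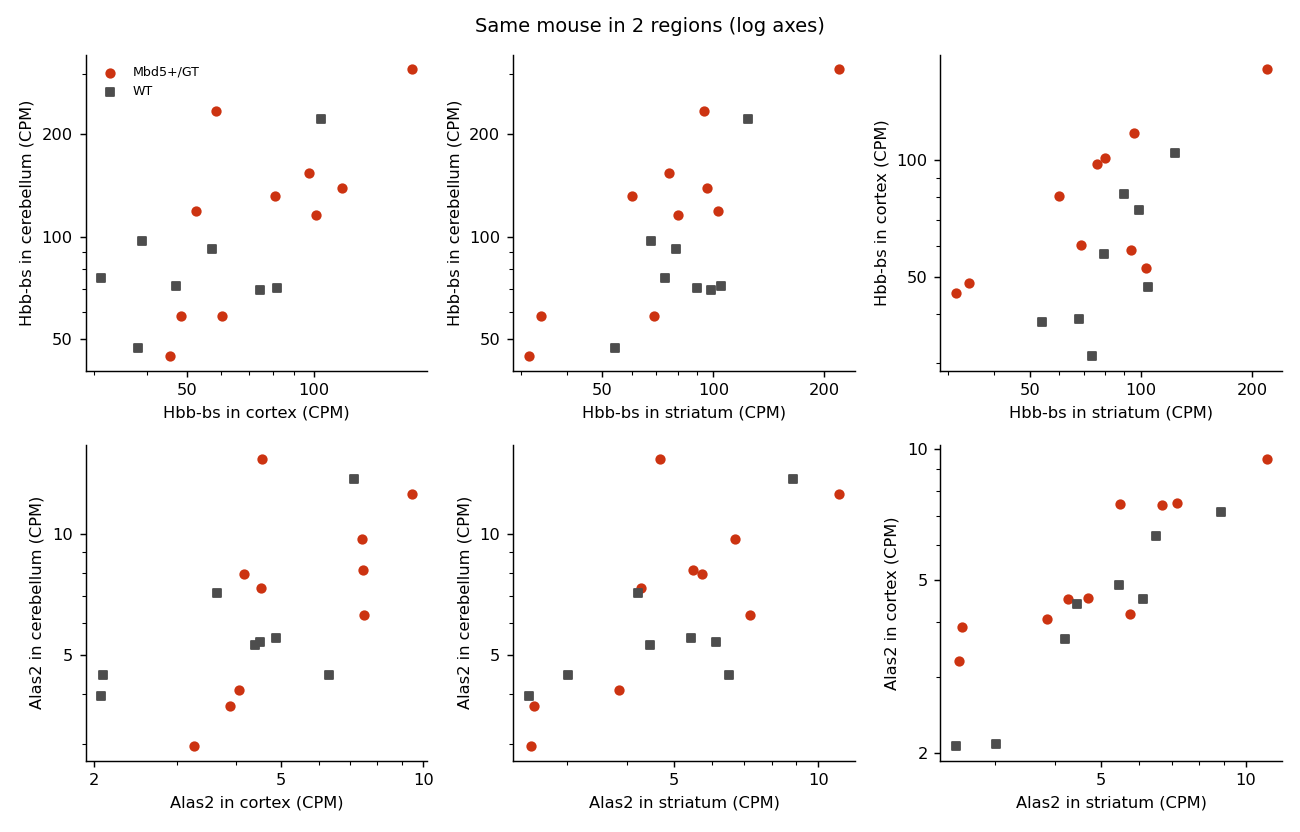
Hbb-bs (upper row) and Alas2 (lower row) of the same mouse in each pair of regions, in CPM on log axes, 1 point per mouse with colors for genotypes. Alas2 in striatum against cortex lies closest to a line, at r = 0.869.

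The comparison of Mbd5+/GT with WT asks whether the allele goes with a different amount of these transcripts. In cerebellum, Hbb-bs ran from 44.47 to 310.6 CPM with a median of 125.5 in 10 Mbd5+/GT mice, and from 47.03 to 221 with a median of 73.37 in 8 WT mice. In cortex it ran from 45.42 to 171.5 with a median of 70.61 in Mbd5+/GT, and from 31.15 to 104.1 with a median of 52.03 in WT. In striatum it ran from 31.53 to 219.7 with a median of 77.99 in Mbd5+/GT, and from 54 to 123.8 with a median of 84.63 in WT. The groups overlapped over most of their range in each region, and the medians of Mbd5+/GT were higher in cerebellum and cortex and lower in striatum. Leaving out the libraries low in regional markers gave medians of 119.1 and 71.34 CPM in cerebellum, and 77.99 and 94.33 in striatum.

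None of the 5 transcripts differed between genotypes past the threshold in any region. For Hbb-bs the log2 fold change of Mbd5+/GT over WT was 0.50 in cortex (SE 0.30, adjusted p = 0.692), 0.49 in cerebellum (SE 0.33, adjusted p = 1) and -0.06 in striatum (SE 0.26, adjusted p = 0.983), in edgeR's quasi-likelihood test (Benjamini-Hochberg adjusted). Exact two-sided permutation tests of the mean log2 CPM, over 43758 splits of the 18 mice, gave p = 0.123, 0.236 and 0.609 in that order, before adjustment. The same exact test with splits within litters, 3500 in all, gave 0.141, 0.238 and 0.626. The count called was 0 of 5 in each region, also at an unadjusted p under 0.05 and in DESeq2. Over all genes tested, 0.0107% were called in cortex, 0.00551% in cerebellum and 0.00539% in striatum, and 8.47%, 2.75% and 7.44% had an unadjusted p under 0.05.

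Within litters, the difference of Hbb-bs changed sign between litters in cortex and cerebellum and was negative in all 3 litters in striatum. The mean log2 CPM of Mbd5+/GT minus that of WT in litters 1, 2 and 3 was 0.82, -0.22 and 0.17 in cortex, 0.35, -0.75 and 0.74 in cerebellum, and -0.35, -0.16 and -0.51 in striatum. Litter 2 held 1 WT mouse, the one with high values, so its difference rests on that animal. Without the libraries low in regional markers, the fold change of Hbb-bs was 0.38 in cerebellum (SE 0.38, adjusted p = 1) and -0.15 in striatum (SE 0.30, adjusted p = 0.974).

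Among the alpha-globin genes, Hba-a1 in cortex ran from 14.48 to 38.61 CPM with a median of 18.08 in Mbd5+/GT, and from 9.289 to 30.87 with a median of 17 in WT. Its log2 fold change was 0.38 in cortex (SE 0.28, adjusted p = 0.781), 0.42 in cerebellum and 0.13 in striatum. In striatum the median was 27.45 CPM in Mbd5+/GT and 26.73 in WT, and the highest was 111.9, in mouse M767, against 42.25 in WT. Hba-a2 ranged from 3.365 to 23.96 CPM in cerebellum of Mbd5+/GT and from 4.532 to 25.1 in WT, with medians of 13.22 and 8.146. Its log2 fold change was 0.36 in cortex (SE 0.26), 0.37 in cerebellum (SE 0.30) and 0.07 in striatum (SE 0.31). The positive sign of both alpha-globin fold changes in striatum was not stable. Without the library of mouse M767 the values were -0.15 for Hba-a1 and -0.12 for Hba-a2. With M767 kept, the plain differences of mean log2 CPM, without surrogate variables, were -0.03 and -0.13. With litter and sex as covariates the values were also negative.

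Hbb-bt, the less abundant beta-globin transcript, ran from 4.986 to 49.96 CPM in cerebellum of Mbd5+/GT and from 8.097 to 31.18 in WT, with medians of 21.67 and 12.81. Its log2 fold change was 0.41 in cortex (SE 0.31, adjusted p = 0.787), 0.55 in cerebellum (SE 0.36, adjusted p = 1) and -0.21 in striatum (SE 0.23, adjusted p = 0.896). Alas2 ran from 3.263 to 9.465 CPM in cortex of Mbd5+/GT and from 2.075 to 7.139 in WT, and its medians, 4.538 and 4.46, were nearly the same. Its log2 fold change was 0.36 in cortex (SE 0.25), 0.27 in cerebellum (SE 0.29) and 0.06 in striatum (SE 0.24). The ranges of the 2 genotypes overlapped for each of the 5 transcripts in each region.

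**Figure D3:**
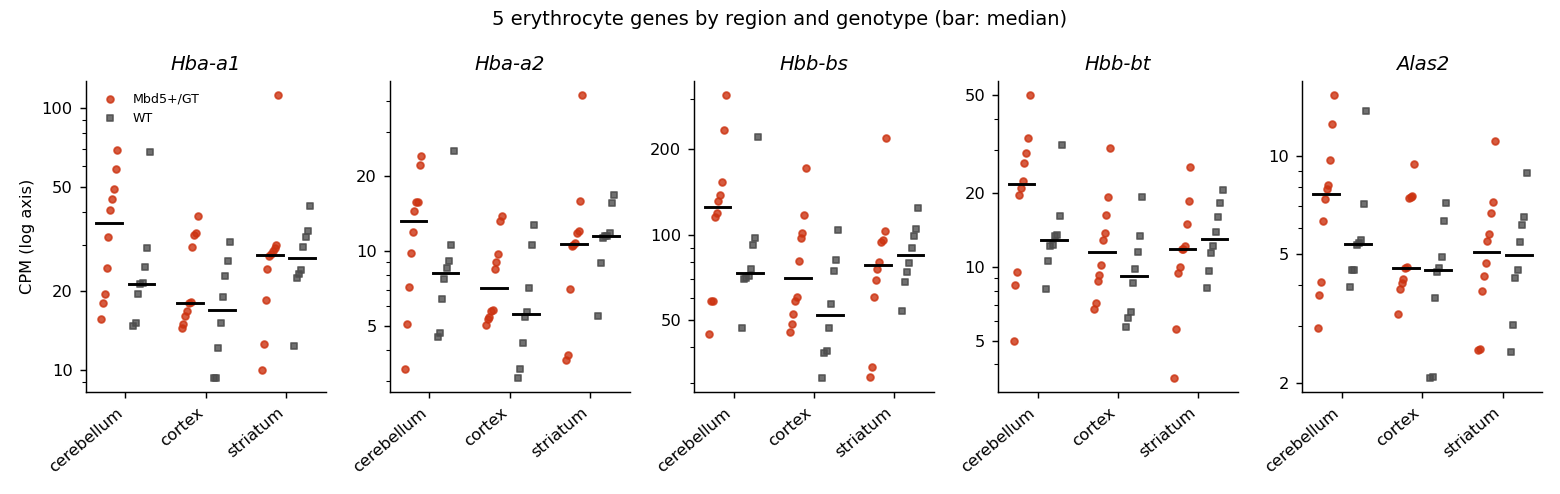
The 5 transcripts by region and genotype in CPM on a log axis, with 1 point per library and a bar at the median of 10 Mbd5+/GT or 8 WT libraries. The genotypes overlap in each panel, for Hbb-bs in cerebellum from 44.47 to 310.6 CPM against 47.03 to 221.

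The genotype effect was also compared between regions in 1 fit of the 54 libraries. None of the 5 transcripts was called (adjusted p from edgeR's quasi-likelihood test near 1), and neither was any other gene, 0% for each pair of regions. At an unadjusted p under 0.05, 0 of the 5 passed, against 1.11% of all genes for cortex against cerebellum, 2.68% for striatum against cerebellum and 4.22% for striatum against cortex. With mouse as a block, the effect on Hbb-bt was lower in striatum than in cerebellum by a log2 value of -0.73 (unadjusted p = 0.00373) and lower than in cortex by -0.67 (unadjusted p = 0.00791), and adjusted p = 1 and 0.993 for both in the same edgeR test. The corresponding values of Hbb-bs were -0.62 (unadjusted p = 0.0146) and -0.66 (unadjusted p = 0.00988) in the same edgeR test. For Hba-a1, Hba-a2 and Alas2 the unadjusted p of these 2 comparisons was 0.0958 or more. The percentages of all genes above are from the fit without the block. The share of all genes under 0.05 with the block is not given here.

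Among regions, the medians of all 5 transcripts were lowest in cortex. The median of Hbb-bs was 94.6 CPM in cerebellum, 79.69 in striatum and 59.49 in cortex. In the same mouse, Hbb-bs was higher in cerebellum than in cortex in 14 of 18 mice, by a median of 1.548-fold, with a range of 0.8634 to 3.992. It was higher in cerebellum than in striatum in 13 of 18 mice, and higher in striatum than in cortex in 12 of 18. Each region was collected on a single day, so region and day cannot be told apart. The 3 region comparisons share libraries, and their values are given side by side.

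Cortex was lower than cerebellum for all 5 transcripts, in edgeR's quasi-likelihood test (Benjamini-Hochberg adjusted) over 20477 genes. The log2 fold change was -0.62 for Hba-a1 (SE 0.24, adjusted p = 0.0202), -0.61 for Hba-a2 (SE 0.26, adjusted p = 0.0321), -0.68 for Hbb-bs (SE 0.23, adjusted p = 0.00755), -0.64 for Hbb-bt (SE 0.23, adjusted p = 0.014) and -0.49 for Alas2 (SE 0.21, adjusted p = 0.0328). Of all genes, 35.5% were lower in cortex than in cerebellum and 33.3% higher, so a call in this comparison was common. When the 4 libraries low in regional markers were left out, 2 of the 5 calls remained, those of Hbb-bs (-0.62, adjusted p = 0.0194) and Hbb-bt (-0.59, adjusted p = 0.0298). The others were then -0.54 (adjusted p = 0.0516), -0.54 (adjusted p = 0.0665) and -0.39 (adjusted p = 0.0858) for Hba-a1, Hba-a2 and Alas2.

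The 3 libraries of a mouse are paired by animal, and a fit with mouse as a block narrowed the errors. In it all 5 transcripts were lower in cortex than in cerebellum, with adjusted p from 3.34e-05 for Hbb-bs to 0.00543 for Hba-a2, and, without the libraries low in regional markers, from 0.000245 to 0.0173. The block called 69% of all genes in this comparison, 75.7% between striatum and cerebellum and 59.4% between striatum and cortex.

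Between striatum and cerebellum, none of the 5 was called without the block (log2 fold changes from -0.48 for Hbb-bt to 0.13 for Hba-a2), against 38% of all genes lower and 37.3% higher in striatum. With mouse as a block, Hbb-bs (-0.33, adjusted p = 0.0145), Hbb-bt (-0.43, adjusted p = 0.00157) and Alas2 (-0.41, adjusted p = 0.0014) were lower in striatum, while Hba-a1 had -0.13 (adjusted p = 0.422) and Hba-a2 0.14 (adjusted p = 0.44). Of these 3 calls, that of Hbb-bs was lost without the libraries low in regional markers (-0.24, adjusted p = 0.0686).

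Between striatum and cortex, Hba-a2 was higher in striatum by 0.74 (SE 0.27, adjusted p = 0.012), and Hba-a1 missed the threshold at 0.53 (adjusted p = 0.053). Of all genes, 28.9% were higher and 30.1% lower in striatum. With mouse as a block, Hba-a1 (0.44, adjusted p = 0.01), Hba-a2 (0.66, adjusted p = 0.000861) and Hbb-bs (0.28, adjusted p = 0.0422) were higher, and Hbb-bt (0.16) and Alas2 (0.06) were not called. When those libraries were left out, the call of Hbb-bs under the block was lost (0.26, adjusted p = 0.0527).

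The alpha- and beta-globin transcripts thus took different values in striatum relative to the other regions. The ratio of beta- to alpha-globin counts was higher in cerebellum than in striatum in 17 of 18 mice and higher in cortex than in striatum in 15 of 18. Its medians were 2.878 in cerebellum, 2.86 in cortex and 2.494 in striatum. With those libraries left out, the ratio was higher in cerebellum in 14 of 15 mice and in cortex in 13 of 16. The ratio of Hba-a1 to Hba-a2 was 2.836, 2.817 and 2.542 at the median in cerebellum, cortex and striatum, and that of Hbb-bs to Hbb-bt 6.127, 6.046 and 6.505. These ratios were not tested.

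Litter was compared next, with genotype in the model. In striatum, Hbb-bs ran from 31.53 to 80.11 CPM with a median of 67.04 in the 6 mice of litter 1, from 68.93 to 219.7 with a median of 103 in the 5 of litter 2, and from 34.1 to 104.6 with a median of 90.01 in the 7 of litter 3. The ranges of litters 1 and 2 met between 68.93 and 80.11 CPM. Litter 2 was higher than litter 1 by a log2 value of 1.05 for Hbb-bs, and by 1.33 for Hba-a1, 1.41 for Hba-a2, 1.07 for Hbb-bt and 1.01 for Alas2. In edgeR's quasi-likelihood test over the 3 litters the unadjusted p ranged from 0.00651 to 0.0111, and the adjusted p from 0.318 to 0.332. So 0 of 5 were called in striatum, against 0.0162% of all genes, and all 5 had an unadjusted p under 0.05, against 12.2% of all genes.

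Without mouse M767, the values of litter 2 over litter 1 in striatum were 0.70 for Hbb-bs, 0.72 for Hba-a1 and 0.89 for Hba-a2. In the same edgeR test 4 of the 5 unadjusted p-values were then under 0.05 (from 0.0329 to 0.0499), with Hba-a1 at 0.055. The adjusted ones were 0.476 to 0.509. In cortex and cerebellum 0 of 5 were called after adjustment, as was 0% of all genes. In cortex Hba-a2 alone had an unadjusted p under 0.05 (0.0168), against 7.8% of all genes. In cerebellum the unadjusted p of the 5 ranged from 0.0954 to 0.255, and 13.3% of all genes had one under 0.05. Once the 2 cerebellar libraries low in regional markers were left out, Hba-a1, Hba-a2 and Hbb-bs were under 0.05 in cerebellum (0.0431, 0.0482 and 0.0439). Their adjusted p in the same test was 0.554, and 0 of all genes were called. The share of all genes under 0.05 without these libraries, or without mouse M767, is not given here. Litters 1 and 2 each held 1 sex, so litter and sex cannot be told apart there. Within litter 3, the mean log2 CPM of Hbb-bs of 4 females minus that of 3 males was 0.10 (cerebellum), -0.35 (cortex) and -0.47 (striatum).

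To find which transcripts moved in step with hemoglobin, the log2 CPM of Hbb-bs was used as a term beside genotype, so that a slope of 1 stands for a change in proportion to Hbb-bs. The other 4 transcripts had slopes near 1 in each region, and each passed edgeR's quasi-likelihood test (Benjamini-Hochberg adjusted) over all genes. The slopes of Hbb-bt were 1.02 in cortex (SE 0.06, adjusted p = 5.23e-09), 1.03 in cerebellum (SE 0.07, adjusted p = 1.97e-07) and 1.01 in striatum (SE 0.08, adjusted p = 1.07e-06). Since Hbb-bt and Hbb-bs share long stretches of sequence, and so may share reads, the slope of Hbb-bt is a description only. For Hba-a1 they were 0.87, 0.87 and 1.17, and for Hba-a2 0.94, 1.02 and 1.23, so both alpha-globin slopes were above 1 in striatum. There the library of mouse M767 was highest in Hbb-bs, at 219.7 CPM, with Hba-a1 at 111.9 and Hba-a2 at 42.11. Its ratio of beta- to alpha-globin counts, 1.592, was the lowest of all 54 libraries. The alpha-globin slopes in striatum without this library are not given here. Alas2 had 0.85, 0.82 and 0.89, with the largest adjusted p of the 4 in each region, up to 0.000766 in striatum. Without the libraries low in regional markers, all 4 remained called in cerebellum (slopes 0.77 to 1.05) and in striatum (0.87 to 1.26). With litter as a covariate beside genotype, Alas2 was not called in striatum (slope 0.84, adjusted p = 0.131 in the same test).

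**Figure D4:**
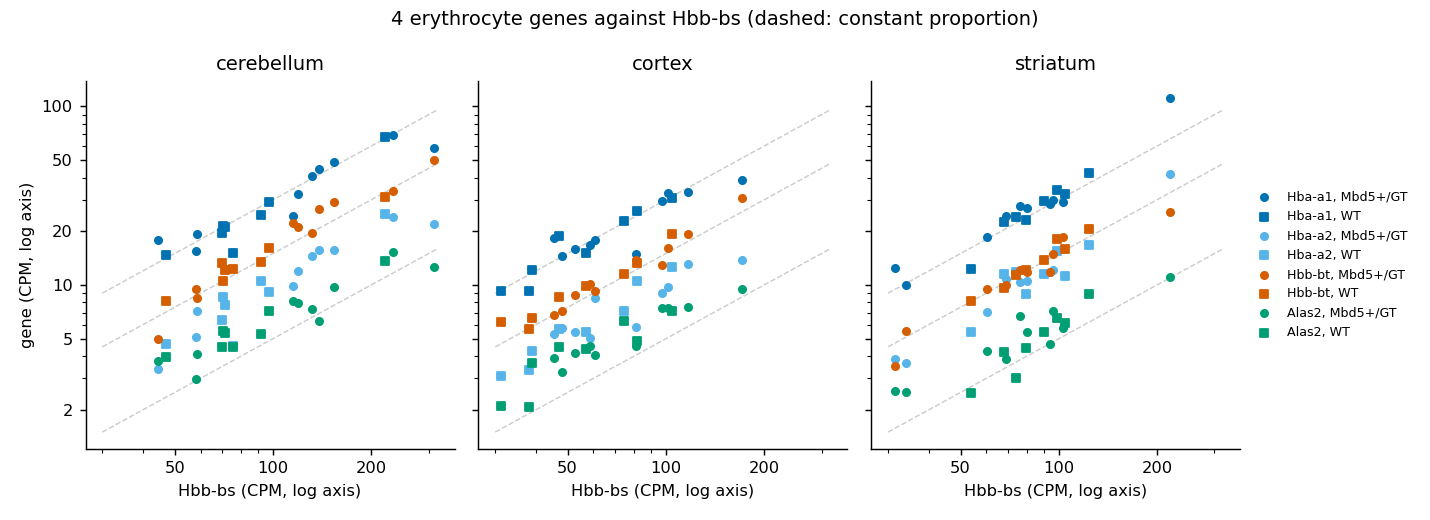
CPM of the other 4 transcripts against Hbb-bs in the 18 libraries of each region, on log axes, with dashed lines for a constant proportion and marker shapes for genotypes. Points follow the dashed lines, as the slopes of 0.82 to 1.23 give.

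With Hbb-bs as the term, few other genes passed. With Hba-a2 as the term in its place, 4286 genes other than the 5 were called in cerebellum, 2117 with a positive and 2169 with a negative slope. With Hbb-bs as the term, the percentage of all genes called was 0.0214% in cortex, 0.033% in cerebellum and 0.0216% in striatum, and in cortex and striatum the calls were these 4 transcripts and no other. In cerebellum 2 more were called, both from the list of transcripts of late red cell precursors: Ube2l6, a conjugating enzyme of ubiquitin-like proteins, with a slope of 0.45 (SE 0.06, adjusted p = 0.00507), and Isg20, an exonuclease, with 0.65 (SE 0.11, adjusted p = 0.0265). Ube2l6 ran from 3.324 to 10.43 CPM in cerebellum. Neither was called in cortex (0.25 and 0.40, adjusted p = 0.826) or in striatum (0.23 and 0.32, adjusted p = 0.349 and 0.314). Their slopes were not compared between regions by a test. Without mouse M767 neither was called in cerebellum, and without the libraries low in cerebellar markers Ube2l6 was (0.44, adjusted p = 0.0103).

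Genes of other erythroid lists were then read off the same fit. Among 14 genes of heme synthesis and transport other than Alas2, 0 were called in any region, and 4 (cerebellum), 0 (cortex) and 4 (striatum) had a positive slope at an unadjusted p under 0.05, beside 2656, 485 and 1703 of all genes. A negative slope at that threshold was seen for 0, 1 and 1 of them, beside 2364, 499 and 1400 of all genes. The median slopes of this list were 0.08, 0.02 and 0.08, against 0.03, 0.00 and -0.01 over all genes. Tmem14c, a mitochondrial porphyrinogen transporter, had 0.27 in cerebellum (adjusted p = 0.105) and Urod, uroporphyrinogen decarboxylase, 0.22 (adjusted p = 0.107). In striatum Flvcr1 went the other way, at -0.45 (adjusted p = 0.186). Unlike Alas2, most heme synthesis enzymes are used by all cells. The sum of this list was 446.5 to 590.9 CPM in every library, where the sum of the 5 erythrocyte genes was 51.83 to 453.4.

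Of 17 genes of the erythrocyte membrane and cytoskeleton, 14 were tested in cerebellum and 11 in cortex and in striatum, and 0 were called. Slc4a1, the red cell anion exchanger, had a slope of 0.06 in cerebellum (adjusted p = 0.792) and 1.06 in striatum (SE 0.44, adjusted p = 0.251). Its median was 1.37 CPM (cerebellum), 0.2162 (cortex) and 0.2136 (striatum), with nearly equal values in cortex and striatum. Sptb and Ank1, the erythroid spectrin and ankyrin that neurons also make, had slopes of -0.28 and -0.25 in cerebellum (adjusted p = 0.105 for both).

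Transcripts of late red cell precursors (25 genes, of which 19 were tested in each region) had median slopes of 0.18, 0.04 and 0.12 in the same order of regions. Bpgm, which makes the hemoglobin ligand bisphosphoglycerate, had 0.25 in cerebellum and 0.18 in striatum (adjusted p = 0.105 and 0.208). Gpx1, a glutathione peroxidase, had 0.37 and 0.40 (adjusted p = 0.105 and 0.198). Apart from Ube2l6 and Isg20 in cerebellum, 0 of the 19 were called. The erythroid regulators were near or at the floor: Gata1 was at 0 in 14, 14 and 16 of the 18 libraries of a region, and Klf1 had medians of 0.2165, 0.1136 and 0.1092 CPM. A count of 0 allows up to 3 counts, or 0.0612 CPM in the deepest and 0.119 CPM in the shallowest library, for counting error only.

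No other globin gene was called. The embryonic genes Hbb-bh1 and Hbb-bh2 had 0 counts in all 54 libraries, and Hba-x in all libraries of cortex and striatum. Hbb-y had medians of 0.03586, 0.03909 and 0.03159 CPM, in the order cerebellum, cortex and striatum. Cygb, cytoglobin of fibroblasts and some neurons, had 55.59, 46.69 and 56.31 CPM. Of the 4 tested in each region 0 were called, with slopes from -0.86 to 0.59. In the list of hemoglobin and heme clearance, 0 of 12 were called in any region. At an unadjusted p under 0.05, 7, 2 and 5 had a positive slope and 1, 1 and 0 a negative one, in cerebellum, cortex and striatum. Of the 18159, 18660 and 18545 genes tested, 2656, 485 and 1703 had a positive slope at that threshold and 2364, 499 and 1400 a negative one. Fth1, the ferritin heavy chain, had slopes of 0.48 in cerebellum and 0.47 in striatum (adjusted p = 0.105 and 0.186).

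Transcripts of white blood cells, platelets and vessels were set beside the globin genes in the same way, and 0 were called. The median slope of the neutrophil list was 0.36 in cortex, 0.56 in striatum (8 genes tested in each) and 0.74 in cerebellum (9 genes). Slopes of this list ran from -0.06 to 0.55 in cortex, -0.25 to 1.73 in striatum and 0.18 to 1.03 in cerebellum. Medians in cerebellum, cortex and striatum were -0.05, 0.07 and -0.01 for monocytes. For lymphocytes and natural killer cells they were 0.36, 0.15 and 0.32, and for platelets 0.29, 0.03 and 0.28. Retnlg had 1.03 and S100a8 0.93 in cerebellum (adjusted p = 0.105 for both), and Camp 1.73 and Ngp 1.14 in striatum (adjusted p = 0.186 and 0.231). Neutrophil transcripts summed to 10.85 to 20.17 CPM in cortex, 5.803 to 46.04 in cerebellum and 7.992 to 21.11 in striatum, with Camp at 0 in 1, 1 and 3 libraries. For brain endothelial cells (15 genes) the median slopes in cerebellum, cortex and striatum were 0.03, -0.16 and -0.04, and for mural cells (11 genes) 0.10, -0.11 and 0.06. Microglial genes had medians of 0.32, 0.07 and 0.20, and C1qb had slopes of 0.53, 0.26 and 0.40. Choroid plexus genes had medians of -0.87, -0.16 and -1.43 with 0 of 10 called, and their sum differed between libraries from 14.39 to 6113 CPM in striatum. The part of these cell types in the levels of the 5 genes was not tested.

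**Figure D5:**
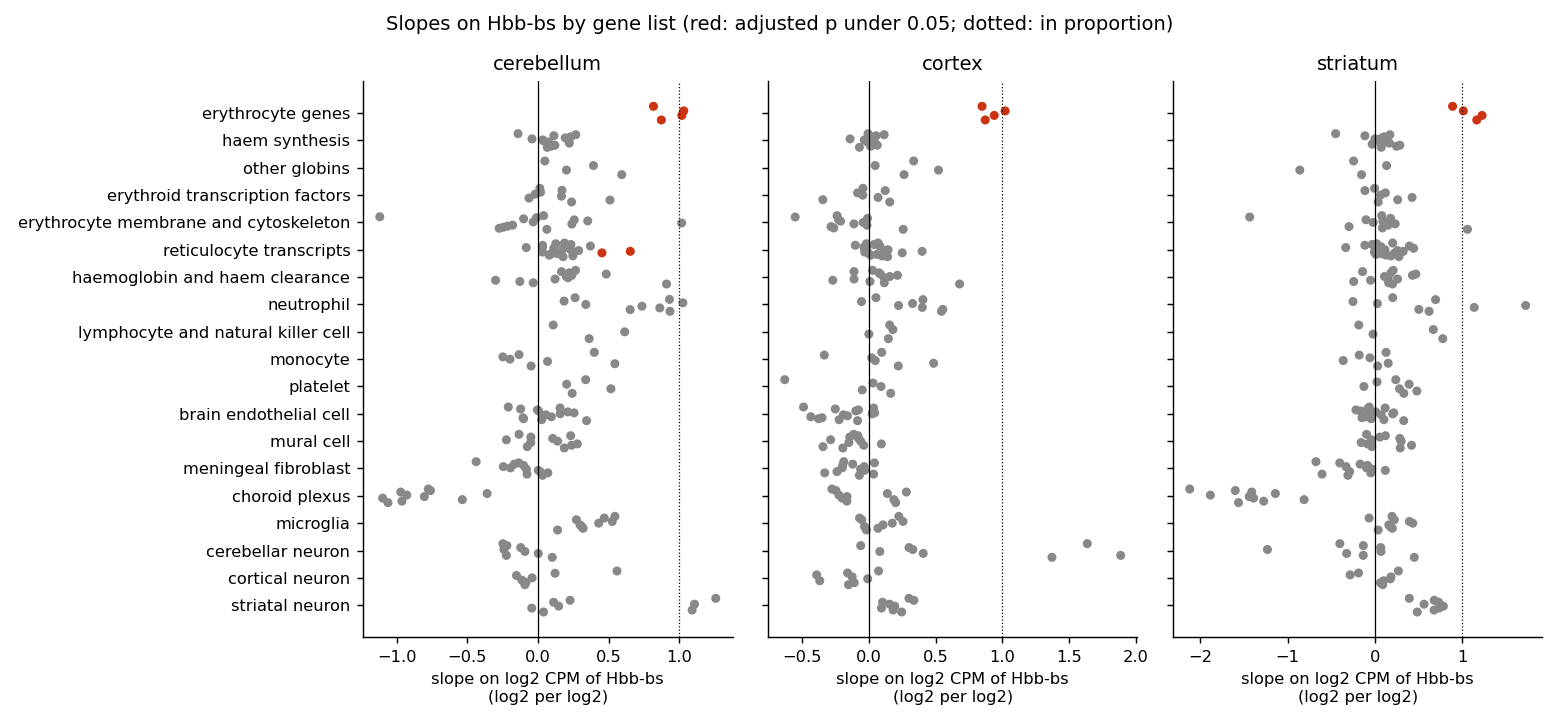
Slope of each tested gene on the log2 CPM of Hbb-bs, by gene list and region, in log2 units per log2 unit, with red points for an adjusted p under 0.05. The other 4 erythrocyte genes lie near 1, and genes of heme synthesis lie between -0.45 and 0.29.

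The genes whose pattern was most like that of Hbb-bs were ranked by the mean over the 3 regions of Pearson's r with Hbb-bs over the 18 libraries of each region, among 17220 genes. The other 4 transcripts took the first 4 places, with 0.970 for Hbb-bt, 0.945 for Hba-a2, 0.939 for Hba-a1 and 0.918 for Alas2. A gap followed to Fcer1g at 0.708, an Fc receptor subunit of myeloid cells, then the ribosomal protein gene Rplp0 at 0.687, Ube2l6 at 0.686, Rpl35 at 0.673, C1qb at 0.670, Isg20 and Lst1 at 0.658, Tmem50a at 0.654, 1810037I17Rik at 0.653 and Rps26 at 0.652. Without the libraries low in regional markers the same 4 stayed in the first 4 places, with 0.926 to 0.970, and Ube2l6 came next at 0.714. Correlations within a library set share depth and tissue composition, so they are a description with no test.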

How the data were processed

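The values that the authors deposited are raw counts per gene, in whole numbers, and per the labels each library is polyA RNA of 1 mouse and region. The submitters' processing notes name FastQC 0.10.1, STAR 2.4.2 and GRCm38. The strand setting is not given in the sources used here. All columns were used. Gene names came from GENCODE, which matched 46574 of 47069 identifiers, and 92 ERCC spike-in entries (0.0207% to 0.728% of a library) were left out. No pair of libraries agreed within sampling noise (chi-square of at least 8.26 per gene over 219 pairs).

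Genes over 4 counts in 8 or more libraries were fitted with edgeR 4.0.16 (TMM, quasi-likelihood, robust; R 4.3.3). Genotype was tested per region with 2 surrogate variables in cerebellum and 4 in cortex and in striatum (sva 3.50.0), and regions over 54 libraries. DESeq2 1.42.0, other normalization, covariates, filters and left-out libraries were the alternatives. CPM are TMM-scaled and log2 CPM used a prior count of 2. Samples with the same mouse number come from the same animal, which gives the pairing. The median same-gene correlation over mice was 0.0927, 0.00637 and 0.0458 for the 3 pairs of regions. Correlations used 100000 permutations in Python 3.11.15 (numpy 2.4.6). On simulated data with 2-fold changes in 200 genes, 95.5%, 89% and 87.5% were recovered for genotype in cortex, striatum and cerebellum. The changed genes were drawn from all well-counted genes, with no litter effect. Their recovery does not give the power for the 5 transcripts, whose genotype SE reached 0.36 (Hbb-bt in cerebellum). The members, gene lists and tests were chosen with earlier results of these data known. Named were the 5 members, Mbd5, at most 4 genes of a list by smallest unadjusted p and the 10 other genes most like Hbb-bs. Of the genes outside that rule, Slc4a1, Gata1, Klf1, Hbb-y, Hbb-bh1, Hbb-bh2, Hba-x and Cygb were chosen after their values were seen.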

Additional observations from a re-analysis of the deposited data

Results flagged for a closer look

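In 54 sets of libraries of 1 region and genotype (the 5 transcripts and 4 of their ratios), the highest or lowest library was set against the nearest other by Dixon's test, and 13 stood apart. Chance alone marks about 1 in 20 such sets where values are normally distributed. The CPM and ratios were not put on a log scale for it, and all 13 marked were the highest library of their set. The rate for skewed values was not determined. The sets are also not independent, since the transcripts move together. In WT cerebellum, mouse M765, the WT male of litter 2, was far above the other 7 for all 5 transcripts: Hba-a1 at 67.63 CPM (next 29.3), Hba-a2 at 25.1 (10.54), Hbb-bs at 221 (97.19), Hbb-bt at 31.18 (16.1) and Alas2 at 13.68 (7.121). In Mbd5+/GT striatum, mouse M767 stood above the other 9 for Hba-a1 at 111.9 CPM (next 30.06), Hba-a2 at 42.11 (15.88) and Hbb-bs at 219.7 (103). The same mouse stood above the other Mbd5+/GT cortex libraries for Hbb-bt, at 30.56 CPM (next 19.19).

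The other 4 were ratios of counts. In Mbd5+/GT cerebellum, mouse M763, which had the lowest Hbb-bs there, had the highest ratio of Hba-a1 to Hba-a2, 5.325 (next 3.111), and of Hbb-bs to Hbb-bt, 8.919 (next 6.988). In WT mice the ratio of beta- to alpha-globin counts was highest in cerebellum of mouse M761, at 4.479 (next 3.211), and in striatum of mouse M762, at 3.488 (next 2.849). The causes were not tested.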

How the results depend on the processing

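Of 121 counts under an alternative, 104 stayed within 1.5 times the reported count, 13 were higher and 4 lower. Of 582 values of single transcripts, 545 kept direction and side of the threshold. Leaving out the library or mouse highest in Hbb-bs, leaving out the 4 libraries low in regional markers, and surrogate variables beside Hbb-bs were chosen after seeing the data. No genotype alternative called any of the 5. In striatum the log2 value turned with litter and sex as covariates (Hba-a1 -0.135, Hba-a2 -0.277, Alas2 -0.0640), without litter 2 (Hba-a2 -0.0207), without the repeated libraries (Hba-a2 -0.0128) and without the library highest in Hbb-bs (Hba-a1 -0.148, Hba-a2 -0.118, Alas2 -0.0709). Of striatum against cerebellum, 3 were called with mouse as a replicate block, 2 with that block and without the 4 libraries, 2 without litter 2 (Hba-a2 then -0.00479) and 1 without the repeated libraries. Without the 4 libraries and without the block, Hba-a1 had 0.0311 there. Of striatum against cortex, 3 were called with the replicate block, and 2 each with the block without the 4 libraries, without the 4 libraries alone, in DESeq2 and with DESeq2 size factors. Of cortex against cerebellum, 2 were called without the 4 libraries, and all 5 with the block. The genotype effect in cortex minus that in cerebellum turned for Hbb-bs to 0.0387 with the block, without the 4 libraries to 0.0131 for Hba-a1, 0.0461 for Hba-a2 and 0.0554 for Hbb-bs, and with both to 0.0643 for Hba-a2 and 0.0554 for Hbb-bs. The replicate block changed no other call. Genes other than the 5 that followed Hbb-bs in cerebellum numbered 2, and 1 with litter as a covariate (Ube2l6), 1 without the libraries low in markers, 0 without the library highest in Hbb-bs and 4286 with Hba-a2 as the term. In striatum there were 0, and 1 with surrogate variables (Ms4a15, slope 2.63), a gene chosen after its values were seen. With litter as a covariate, Alas2 was not called in striatum (0.84, adjusted p = 0.131). Correlations between striatum and cerebellum passed for 2 transcripts after centring on genotype (Hbb-bs r = 0.802, Hbb-bt 0.819), and between cortex and cerebellum for 1 without the 4 libraries. The causes were not tested. Depth did not limit the 5 transcripts, each of which had at least 65 counts per library, but it limited Gata1, Klf1 and the embryonic globin genes.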
